A study of Homo sapiens with 6 samples.

Results

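The respiratory chain of MCF10A cells was examined gene by gene, with the subunits encoded in the nucleus kept apart from those encoded in mitochondrial DNA. Members were protein-coding genes chosen by symbol, namely the NDUFA, NDUFB, NDUFC, NDUFS and NDUFV genes of complex I (assembly factors of the NDUFAF series left out), SDHA to SDHD of complex II, the UQCR genes of complex III, the COX4 to COX8 genes of complex IV and the ATP5F1, ATP5M and ATP5P genes of complex V. The heavy-strand mitochondrial mRNAs MT-ND1 to MT-ND5, MT-CO1 to MT-CO3, MT-ATP6, MT-ATP8 and MT-CYB completed the set. This gave 96 of the 19198 genes listed, 84 nuclear and 12 mitochondrial. The symbol rule itself uses no measured value.

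MCF10A is an established, non-tumorigenic human mammary epithelial cell line, labelled luminal ductal. The 3 control samples, called control 1, 2 and 3 here, were grown in DMEM:F12 with 5% horse serum and 4 supplements, which were insulin at 10 µg/ml, recombinant hEGF at 20 ng/ml, hydrocortisone at 0.5 µg/ml and cholera toxin at 100 ng/ml. The 3 growth factor-depleted samples, called depleted 1, 2 and 3, lacked all 4 supplements and kept the same serum, so factors in serum remained in both groups and the supplements cannot be told apart from one another. The comparison asks how the cells' transcripts differ between normal and growth factor-depleted conditions, the treatment with which the study followed the epithelial-to-mesenchymal transition. The study's methods describe keeping cells in the depleted medium until their shape had changed. Whether the replicates were separate cultures is not given in the labels, so p-values may measure technical spread only.

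The respiratory chain passes electrons from NADH (complex I) and succinate (complex II) through ubiquinone, complex III and cytochrome c to oxygen at complex IV, and ATP synthase (complex V) uses the resulting proton gradient to make ATP. Complex II is built from nuclear genes alone, whereas complexes I, III, IV and V join nuclear subunits to a small core made inside the mitochondrion. The heavy strand of mitochondrial DNA is transcribed as a long precursor that is cut into separate mRNAs. The nuclear subunit genes are scattered over many chromosomes, and some of them hold binding motifs of factors such as NRF1, ETS-family GABP and YY1 in their promoters.

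Promoters of 66 nuclear members, from 250 bases before to 50 after the transcription start, were found in RefSeq (GRCh38.p14) and searched for short motifs. Each motif was searched on both strands, and a gene counted if any of its starts held it. The NRF1 core CGCATGCG, a palindrome, lay in the promoters of 11 members (16.7%), against 2.46% of all 27305 genes with a promoter entry and 3.28% of 15842 protein-coding genes. The ETS core CCGGAAG lay in 21 members (31.8%) and in 16.5% of protein-coding genes, and the YY1 core AAGATGGC in 12 members (18.2%) and 4.66% of protein-coding genes. The SP1 box GGGCGG was held by 43 members (65.2%) and by 64.3% of protein-coding genes, so its share was near that of other coding genes. A match is a description of the letters and not evidence of binding. The promoters of SDHB (chr1:17053983-17054282, minus strand), SDHD (chr11:112086623-112086922, plus strand) and NDUFA5 (chr7:123557769-123558068, minus strand) are shown as examples that hold a core. These genes were lower in the depleted samples than in control 1 and control 2, as were 66 of the 81 nuclear members tested, described further on. Capitals mark the NRF1, ETS and YY1 cores. NDUFA5 has other starts, and their promoters (chr7:123601602-123601901 and chr7:123601562-123601861) held none of these cores. The promoter of SDHA, which was also lower, held none either and is not shown.
SDHB: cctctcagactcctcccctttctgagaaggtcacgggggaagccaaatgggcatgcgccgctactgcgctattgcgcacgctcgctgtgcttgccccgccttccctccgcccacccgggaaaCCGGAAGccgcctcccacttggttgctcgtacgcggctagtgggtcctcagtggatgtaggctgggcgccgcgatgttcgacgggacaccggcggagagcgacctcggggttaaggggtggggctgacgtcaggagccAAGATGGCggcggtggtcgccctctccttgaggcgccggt
SDHD: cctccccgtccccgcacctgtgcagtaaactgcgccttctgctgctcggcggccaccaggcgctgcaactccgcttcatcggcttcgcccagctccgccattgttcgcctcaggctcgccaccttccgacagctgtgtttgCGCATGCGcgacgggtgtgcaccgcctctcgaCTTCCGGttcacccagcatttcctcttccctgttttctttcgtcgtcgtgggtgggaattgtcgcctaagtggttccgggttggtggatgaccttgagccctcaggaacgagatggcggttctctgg
NDUFA5: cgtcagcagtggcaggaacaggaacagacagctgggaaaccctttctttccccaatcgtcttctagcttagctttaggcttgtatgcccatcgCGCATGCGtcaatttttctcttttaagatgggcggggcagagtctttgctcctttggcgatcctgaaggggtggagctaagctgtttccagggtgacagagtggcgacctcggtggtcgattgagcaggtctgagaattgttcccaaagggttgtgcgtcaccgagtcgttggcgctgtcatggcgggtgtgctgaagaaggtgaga

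Values are normalized counts, that is, reads per gene divided by a size factor for each sample, and they are not divided by gene length. Between 7472418 and 28672630 reads fell on genes per sample, and 3 reads corresponded to 1.76 to 6.71 normalized counts. Of the 96 members, 93 reached the mean of 10 normalized counts that was required for testing, 81 nuclear and all 12 mitochondrial. NDUFA4L2, a paralog of NDUFA4, did not, with values of 8.8, 2.9 and 9.8 in the controls and 5.5, 13.1 and 15.7 in the depleted samples. ATP5MGL, a retrocopy of ATP5MG, and the readthrough gene ATP5MF-PTCD1 were also under it, with highest values of 12.8 and 6.7. The tissue-restricted isoform genes COX4I2, COX6A2, COX7B2 and COX8C, and the readthrough gene NDUFC2-KCTD14, had no row in the table.

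Control 3 stood apart from the other 2 controls for most members, and the counts and the fold changes that follow are therefore given with and without it. Each library's deviation was taken as the log2 value minus the gene's mean over the 6 samples. Over the 81 nuclear members, its median was 0.74 in control 1, 0.82 in control 2 and -0.83 in control 3, against -0.27, -0.47 and 0.00 in depleted 1, 2 and 3. Over the 12 mitochondrial mRNAs the order was turned around, with -0.47, -0.71 and 1.19 in the controls and -0.69, 0.56 and 0.08 in the depleted samples. Control 3 was the lowest of all 6 samples for 62 of 81 nuclear members, against 26.4% of all 16988 genes tested, and the highest for 9 of 12 mitochondrial mRNAs, against 26.2% of all genes. Its level was a median of 31.7% of the mean of control 1 and control 2 over the nuclear members (range 11.4% to 432%) and 337% over the mitochondrial mRNAs (175% to 505%), while over all genes tested the median was 95.4%.

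Other measures of the libraries moved with this split. Among the 718 protein-coding genes with a transcript under 1000 bases, the median deviation was 0.13, 0.57 and -0.73 in control 1, 2 and 3 and 0.02, -0.19 and 0.20 in the depleted samples, and the nuclear members have short transcripts (median 758 bases, against 2733 for all genes tested). Mitochondrial ribosomal RNA was also high in control 3, with MT-RNR2 at 153657 normalized counts against 16267 and 15037 in control 1 and 2 and 42693 to 63481 in the depleted samples, from libraries that had been depleted of ribosomal RNA. The part of these differences in the results was not tested. Correcting every gene for transcript length and GC content brought the nuclear median of control 3 from -0.83 to -0.42, still below control 1 (0.58) and control 2 (0.55), and took the mitochondrial median of control 3 from 1.19 to 1.81.

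Basal and epithelial markers checked the labelled cells. The 5 basal markers (KRT5, KRT14, KRT17, TP63, ITGA6) summed to 28072 to 59422 in the controls and 27603 to 142260 in the depleted samples, and KRT14 was low in the controls (264, 58.6 and 12.8). TP63 was called lower with all samples, at 271, 359 and 1615 in the controls against 8.24, 64.9 and 42.5 (log2 fold change -4.18, limma adjusted p = 0.0270). KRT14 and KRT17 lay the other way and were not called. KRT14 had 980, 193 and 306 in the depleted samples (log2 fold change 2.69, limma adjusted p = 0.184). KRT17 had 9703, 16142 and 5882 in the controls against 19236, 61385 and 123480 (log2 fold change 2.44, limma adjusted p = 0.0877). Of the 5 basal markers, 3 had a log2 fold change below 0. Of the 6 luminal markers, KRT8, KRT18, KRT19, GATA3 and ESR1 summed to 5358 to 15281 in the controls and 17142 to 28980 in the depleted samples, and PGR had no row. Most of this sum was KRT8 and KRT18, which were not called (log2 fold change 1.10 and 1.17, limma adjusted p = 0.336 and 0.220). The other 3 had a log2 fold change below 0. GATA3 (-0.28, limma adjusted p = 0.865) and ESR1 (-2.99, limma adjusted p = 0.0632) were not called with all samples. KRT19 was called lower (214, 111 and 124 against 30.2, 25.6 and 29.1, log2 fold change -2.31, limma adjusted p = 0.0196). The summed level of the 5 fibroblast markers (COL1A1, COL1A2, LUM, DCN, PDGFRA) was 200.9 to 403.5 in the controls and 7439 to 25051 in the depleted samples. Of the 5, 4 were called higher, against 4.36% of all genes tested. The paper reports that mesenchymal genes such as FN1 and VIM rose without growth factors, and these markers cannot tell such a change from fibroblasts. The epithelial markers EPCAM and CDH1 summed to 24030, 15032 and 13848 in the controls. Depleted 1 stood apart with a sum of 762. Depleted 2 and 3, at 15515 and 15605, lay within the range of the controls. Of the leukocyte markers, PTPRC was at 13.8 or under in every sample and CD68 had no row. The 3 endothelial markers summed to 100.3 to 1009 in the controls and 240.0 to 1610 in the depleted samples, most of it PECAM1, and CDH5 was called higher, at 8.77, 4.10 and 4.92 against 25.6, 119 and 101 (log2 fold change 3.37, limma adjusted p = 0.0282). The adipocyte marker PLIN1 was at 24.0 to 57.1 against 7.87 to 13.4 while ADIPOQ had no row, and the 3 genes of dividing cells (MKI67, TOP2A, CCNB1) summed to 9833 to 15869 against 4725 to 12236. In bulk RNA, fewer cells of a type and less RNA per cell cannot be told apart, and the part of these markers in the results was not tested.

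**Figure D1:**
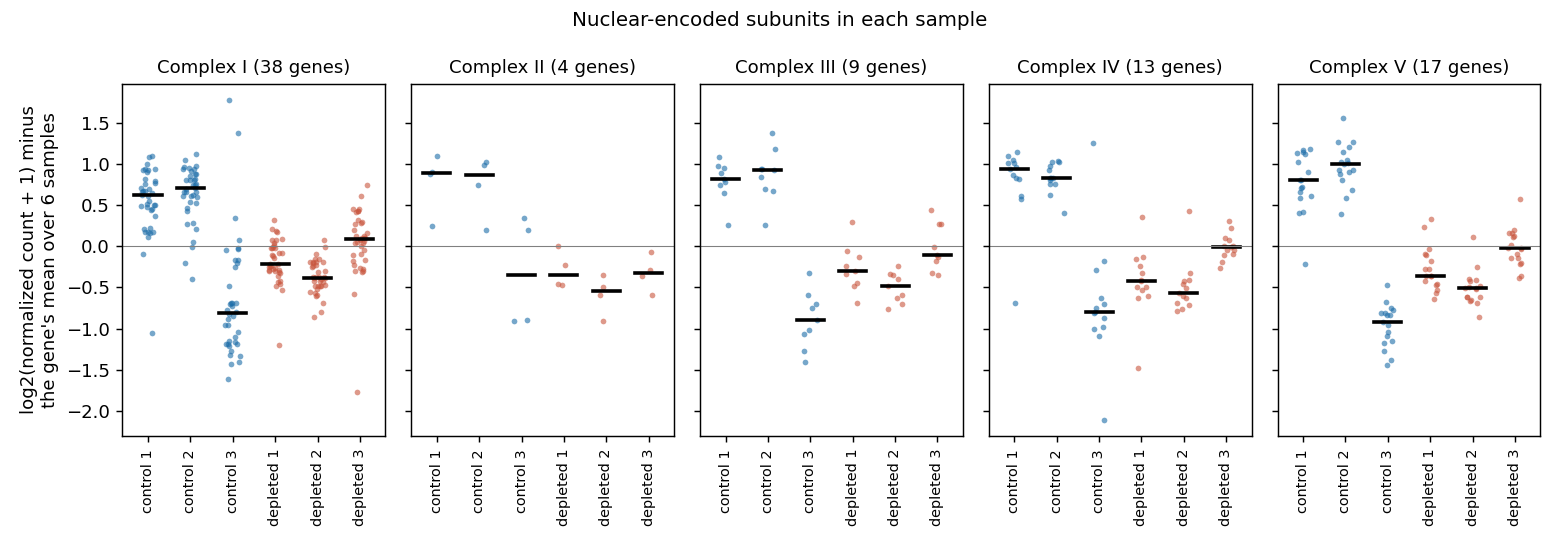
Deviation of each tested nuclear-encoded subunit from its own mean over the 6 samples (vertical axis, log2 of normalized count + 1), by complex, with 1 point per gene and a black line at the median; controls are blue and depleted samples red. In complexes I, III, IV and V the medians of control 1 and control 2 lie at 0.62 or above and the median of control 3 lies at -0.80 or lower, below all 3 depleted samples.

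With all 6 samples, 1 of the 81 nuclear members was called (Benjamini-Hochberg adjusted p under 0.05 over all genes and at least 2-fold, limma), against 6.33% of all genes tested, of which 1.97% were lower and 4.36% higher in the depleted samples. It was SDHA, the flavoprotein of complex II that oxidises succinate, and it was lower. Its values were 3745, 3427 and 2582 in control 1, 2 and 3 and 1486, 1086 and 1359 in the depleted samples, so that the groups did not overlap. The log2 fold change was -1.30 (SE 0.28, n = 3 per group, limma adjusted p = 0.0302), and -1.46 without control 3 (adjusted p = 0.0120). SDHA lies at chr5:218303-257082 on the plus strand (hg38), 21.7% of its exonic bases are shared on the same strand with another annotated gene, and pseudogene copies of it exist elsewhere in the genome, so its count carries that uncertainty. The call did not survive leaving out any 1 sample other than control 3, with adjusted p between 0.0535 and 0.153.

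None of the other 80 nuclear members passed. The log2 fold change was below 0 for 69 of the 81, SDHA included, with a median of -0.52, against a median of -0.03 over all genes tested and -0.02 over protein-coding genes. Unadjusted p was under 0.05 for 9 of the 81, against 20.0% of all genes tested, by complex 5 in I, 1 in II, 1 in III, 2 in IV and 0 in V. On the recovered reads of the 6 samples, edgeR called 1 nuclear member lower (5.72% of all genes called in either direction) and DESeq2 called 2, SDHA and NDUFA5, lower (12.4% of all genes). In 10 of the 81, every depleted sample lay below every control sample, against 12.1% of all genes, and in 0 of the 81 did every depleted sample lie above, against 13.5% of all genes. Among them were NDUFA5, NDUFA10, SDHA, SDHC and UQCRC2, and for 3 against 3 samples an exact permutation test cannot go below p = 0.1.

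Without control 3, 41 of the 81 nuclear members were called lower and 0 higher in the depleted samples by the same limma test, against 6.49% of all genes lower and 8.08% higher, 14.6% together. The median log2 fold change was -1.01, with 79 of 81 below 0, and the median over all genes stayed at -0.03. Every depleted sample lay below both control 1 and control 2 for 66 of the 81, against 26.9% of all genes, and above both for 1, against 23.9% of all genes. Leaving out any other single sample called 0 of the 81. With the correction for transcript length and GC content and without control 3, limma called 30 lower (6.29% of all genes) and the median was -0.82. With edgeR's quasi-likelihood test on the recovered reads and without control 3, 34 were called lower (5.76% of all genes). Of the 41, 25 were called in all 3 of these analyses, 5 of them in complex I, 2 in complex II, 5 in complex III, 5 in complex IV and 8 in complex V. The corrected and edgeR values without control 3 were chosen after the data had been seen. Control 3 was itself singled out on the values of these same members. The calls and counts without it therefore depend on that choice, and they are a description and not separate support for a difference.

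**Figure D2:**
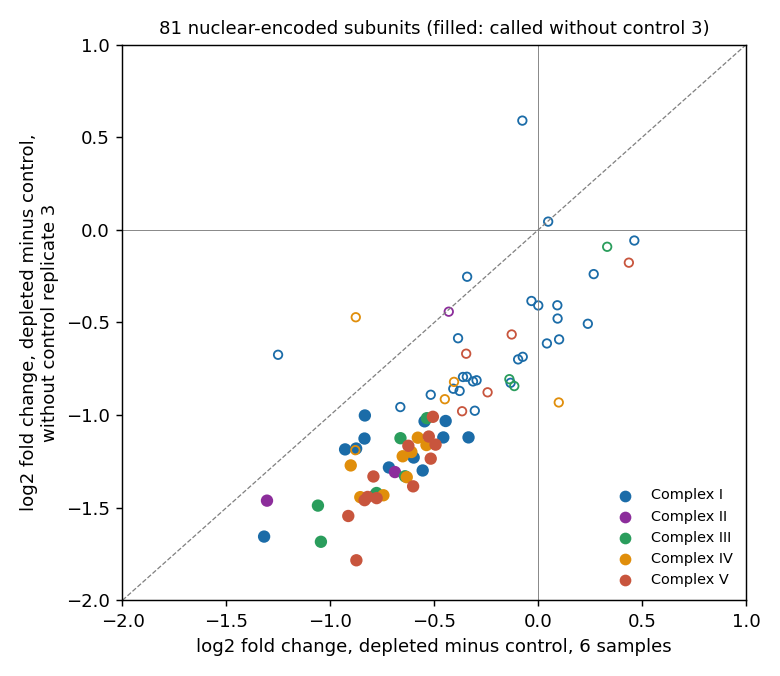
Log2 fold change of 81 nuclear-encoded subunits (depleted minus control) with all 6 samples on the horizontal axis and without control 3 on the vertical axis, coloured by complex; filled points were called without control 3. Most points lie below the dashed line of equal values, and the median is -0.52 on the horizontal and -1.01 on the vertical axis.

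In complex I, the NADH dehydrogenase, 38 of 39 members were tested and their median log2 fold change was -0.34 with all samples and -0.82 without control 3. By limma, 0 of the 38 were called with all samples and 12 were called lower without control 3, the smallest share of any complex. Among the core subunits, NDUFS1, which carries iron-sulfur clusters, had values of 6246, 4785 and 2970 in the controls and 2876, 2705 and 2871 in the depleted samples. NDUFV1, which binds NADH, had 2451, 3350 and 1681 against 1468, 961 and 1415. With all samples and without control 3, the log2 fold changes were -0.66 and -0.96 for NDUFS1 (limma adjusted p = 0.320 and 0.0402) and -0.93 and -1.19 for NDUFV1 (adjusted p = 0.163 and 0.0366), and only the last passed both limits. In both genes control 3 lay between the other controls and the depleted samples, whereas for 62 of the 81 nuclear members it was the lowest sample.

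NDUFA5, an accessory subunit, had the lowest fold change of complex I. Its values were 2248, 1992 and 1049 in the controls and 460, 928 and 707 in the depleted samples, with no overlap, and the log2 fold change came to -1.32 with all samples (SE 0.39, limma adjusted p = 0.0921) and -1.66 without control 3 (adjusted p = 0.0207). The highest fold change of the complex was that of NDUFB7, an accessory subunit, with 534, 686 and 205 against 560, 464 and 756, a log2 difference of 0.46 with all samples (SE 0.47, limma adjusted p = 0.657) and -0.06 without control 3. NDUFA4, long counted with complex I and now placed in complex IV, had 3997, 3056 and 1031 against 1595, 1475 and 2120. Its paralog NDUFA4L2 stayed below the level required for testing in both groups.

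A few complex I genes did not follow the rest. Pearson's r between a member's log2 values and the median profile of the nuclear members was 0.85 or more for 59 of the 81 members, over 6 samples that share their library effects, and it is a description. It was -0.78 for NDUFA7, with values of 3.8, 7.6 and 24.6 in the controls and 9.2, 7.9 and 8.9 in the depleted samples. For NDUFV2, the partner of NDUFV1, it was -0.35, with 112, 59.8 and 273 against 84.2, 68.8 and 22.4. Both genes were counted at low levels, and they share 32.5% and 28.4% of their exonic bases on the same strand with other annotated genes. Of the 81 members, 11 share more than 15% in this way, and reads in such stretches could have been left uncounted or assigned to the other gene.

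Complex II, succinate dehydrogenase, has no mitochondrially encoded part. Its 4 subunits had a median log2 fold change of -0.74 with all samples and -1.37 without control 3, when limma called SDHA, SDHB and SDHD lower. SDHB, the iron-sulfur subunit, had values of 2322, 2521 and 668 in the controls and 892, 881 and 1185 in the depleted samples. Without control 3 its log2 fold change was -1.31 (SE 0.24, limma adjusted p = 0.0165), and with it -0.69 (adjusted p = 0.512). SDHD, a membrane anchor, had 1876, 1733 and 469 against 748, 584 and 684, with -0.78 with all samples (limma adjusted p = 0.461) and -1.43 without control 3 (adjusted p = 0.0112), and it was not called with the correction for length and GC content. SDHC, the other anchor, was even across the controls at 1118, 1081 and 1073 and had 938, 736 and 767 in the depleted samples, a log2 difference of -0.43 with all samples (SE 0.25, limma adjusted p = 0.402) and -0.44 without control 3 (adjusted p = 0.229). Control 3 was at 72.0% of the mean of control 1 and 2 for SDHA and at 97.6% for SDHC, but at 27.6% for SDHB and 26.0% for SDHD.

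Complex III passes electrons from ubiquinol to cytochrome c. All 9 nuclear members were tested, with a median log2 fold change of -0.64 with all samples, 0 called, and of -1.13 without control 3, 6 called lower. UQCRC2, a core protein, had values of 7732, 7516 and 3122 in the controls and 2806, 2320 and 3074 in the depleted samples, with control 3 just above the highest depleted sample, and its log2 fold change was -1.06 with all samples (SE 0.40, limma adjusted p = 0.178) and -1.49 without control 3 (adjusted p = 0.0119). UQCRC1, the partner core protein, had 4875, 4407 and 1703 against 2230, 1971 and 2732, and the Rieske iron-sulfur protein UQCRFS1 had 2226, 1998 and 502 against 887, 693 and 957. For both, control 3 lay under all depleted samples, and limma gave -0.54 with it (adjusted p = 0.557) and -1.02 without it (adjusted p = 0.0366) for UQCRC1, and -0.64 (adjusted p = 0.587) and -1.33 (adjusted p = 0.0161) for UQCRFS1. The hinge protein gene UQCRH had 1990, 2445 and 578 against 794, 700 and 1004. Its retrocopy UQCRHL had 1320, 1772 and 404 against 425, 418 and 604, and since the pair is nearly identical in sequence, reads could be placed on either copy. UQCR11, a small subunit, had the highest fold change of the complex, 0.33 with all samples and -0.09 without control 3, with 446, 448 and 185 against 459, 316 and 510.

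Complex IV, cytochrome c oxidase, had a nuclear median of -0.63 with all samples (0 of 13 called) and of -1.19 without control 3 (8 of 13 called lower). COX5A had values of 1981, 1994 and 585 in the controls and 740, 612 and 861 in the depleted samples, so control 1 and control 2 were alike and control 3 lay below every depleted sample. Its log2 fold change was -0.86 with all samples (limma adjusted p = 0.379) and -1.44 without control 3 (SE 0.24, adjusted p = 0.0126). COX4I1, the largest nuclear subunit and the only COX4 isoform with a row, had 6661, 7835 and 2746 against 3577, 3343 and 4707, and it was called neither with all samples (-0.45, limma adjusted p = 0.634) nor without control 3 (-0.91, adjusted p = 0.0609). COX5B had the lowest value with all samples, -0.90 (SE 0.37, limma adjusted p = 0.217), and -1.27 without control 3 (adjusted p = 0.0218), from 2886, 2909 and 1342 against 1131, 1001 and 1523.

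Where complex IV has isoforms with a row, the widely expressed form was counted above its partner. COX6B1 had 4468, 4678 and 1247 in the controls and 1744, 1857 and 2632 in the depleted samples, while the testis isoform COX6B2 had 21.3, 59.8 and 84.6 against 11.9, 47.2 and 29.1. Per length of transcript, COX6B2 made up 0.148%, 0.396% and 2.07% of the pair in the controls and 0.212%, 0.786% and 0.343% in the depleted samples. COX7A1, the heart and muscle isoform, had 293, 309 and 34.4 against 194, 107 and 188, and its value in control 3 was 11.4% of the mean of control 1 and 2, the lowest of any nuclear member tested. COX7A2, the widely expressed isoform, had 3669, 2995 and 1011 against 1156, 1197 and 2068, and COX7A2L, a supercomplex factor related to it, had 1572, 1579 and 663 against 924, 748 and 1024. Per length, COX7A2 made up 80.2% to 84.8% of these 3 in the controls and 71.9% to 81.7% in the depleted samples, so the shares overlapped. COX7A1 made up 9.09%, 11.3% and 3.92% in the controls and 16.4%, 9.72% and 10.1% in the depleted samples, again with overlap. COX6A1, COX7B and COX8A were the only forms of their families with a row. COX6A1 had 2498, 1557 and 1035 in the controls and 834, 678 and 1140 in the depleted samples. COX7B had 3598, 3218 and 813 against 1222, 1071 and 1527. COX8A had 2247, 2283 and 524 against 1018, 656 and 1080. In COX7B and COX8A control 3 lay below every depleted sample, while in COX6A1 it lay inside the depleted range and the other controls differed too. With all samples none of the 3 was called (limma adjusted p = 0.515, 0.606 and 0.241 for COX7B, COX8A and COX6A1), and without control 3 limma called COX7B and COX8A lower (adjusted p = 0.0138 and 0.0250) but not COX6A1 (adjusted p = 0.0512).

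Complex V had a nuclear median of -0.53 with all samples, 0 of 17 called, and of -1.17 without control 3, when limma called 12 of 17 lower, the largest number along with complex I. The catalytic subunit ATP5F1B, with the highest mean per length of transcript over the 3 controls among nuclear members, had values of 20032, 18022 and 5112 in the controls and 6467, 5531 and 7714 in the depleted samples. Its fold change on the log2 scale was -0.91 with all samples (SE 0.53, limma adjusted p = 0.400) and -1.55 without control 3 (SE 0.28, adjusted p = 0.0162). Its partner ATP5F1A had 17627, 13844 and 5070 against 7665, 5630 and 7817. ATP5F1E, a small subunit of the central stalk, had the highest fold change of the complex, 0.44, with 2040, 2021 and 567 against 1508, 1668 and 2301, and -0.18 without control 3.

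Subunit c, which forms the rotating ring, is made from 3 genes that encode the same mature protein. ATP5MC1 had values of 1018, 1366 and 177 in the controls and 434, 255 and 360 in the depleted samples. ATP5MC2 had 1350, 1531 and 578 against 1282, 713 and 1002, and ATP5MC3 had 4835, 4450 and 1148 against 1739, 1456 and 1936. Without control 3, the log2 fold changes were -1.78 for ATP5MC1 (SE 0.31, limma adjusted p = 0.0139), the lowest of all nuclear members, -1.45 for ATP5MC3 (adjusted p = 0.0119) and -0.56 for ATP5MC2 (adjusted p = 0.235). With all samples they were -0.87, -0.78 and -0.13, and none was called (limma adjusted p = 0.561, 0.481 and 0.913). The difference between the genes was not tested. Per length of transcript, ATP5MC1 made up 28.2% and 33.8% of the 3 in control 1 and 2, 16.8% in control 3 and 18.9% to 19.9% in the depleted samples, while ATP5MC2 made up 38.3% and 38.7% in control 1 and 2, 56.0% in control 3 and 54.1% to 60.2% in the depleted samples. In the shares of ATP5MC1 and ATP5MC2 control 3 thus lay beside the depleted samples. ATP5MC3 made up 33.5%, 27.5% and 27.2% in the controls and 19.9%, 27.0% and 25.9% in the depleted samples, so for it control 3 lay beside control 2 and all depleted samples lay below all controls.

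Called members were found both with and without each promoter motif. Of the 11 members with an NRF1 core, 4 were called lower without control 3 (median log2 fold change -0.89), and of the 55 with a promoter entry and no NRF1 core, 27 were called (median -0.98). With an ETS core 12 of 21 were called (median -1.16), and without one 19 of 45 (median -0.86). With a YY1 core 4 of 12 were called (median -0.88), and without one 27 of 54 (median -1.01). These counts were set against each other with no test.

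Of the 12 mitochondrial mRNAs, 6 had a log2 fold change below 0 with all samples, against 69 of the 81 nuclear members. The difference between the genomes was not tested. By limma, 0 of the 12 were called with all samples and 0 without control 3, at an unadjusted p under 0.05 there were 2 in each case (against 20.0% and 32.4% of all genes), edgeR with all samples called 0 (5.72% of all genes), and DESeq2 called 2 lower, MT-CO2 and MT-CO3 (12.4% of all genes). With all samples their median log2 fold change was 0.06 by limma, -0.14 by edgeR and -0.17 by DESeq2, so its sign depended on the method. Without control 3 it was 0.66 by limma and 0.69 by edgeR. All these values sit within the spread of the libraries, whose medians ran from -0.71 to 1.19.

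**Figure D3:**
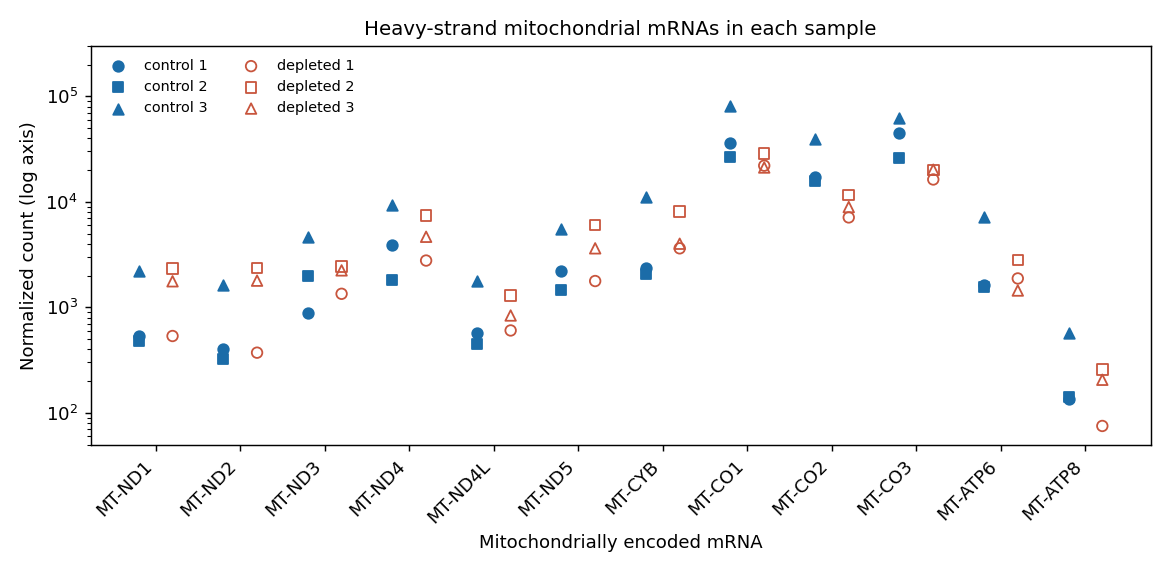
Normalized counts of the 12 heavy-strand mitochondrial mRNAs (vertical log axis) in each control (blue, filled) and depleted sample (red, open). Control 3 is the highest sample for 9 of the 12, and only MT-CO2 and MT-CO3 have all depleted samples below all controls.

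The 3 mRNAs of complex IV were the lowest in fold change. MT-CO1 (chrM:5904-7445), the catalytic subunit that holds the oxygen-binding centre, had values of 36158, 26578 and 80629 in the controls and 21998, 28609 and 21127 in the depleted samples. MT-CO2 (chrM:7586-8269), which takes electrons from cytochrome c, had 17148, 15636 and 39557 against 7111, 11538 and 8917. MT-CO3 (chrM:9207-9990) had 44650, 25899 and 61856 against 16273, 20034 and 20144. For MT-CO2 and MT-CO3 every depleted sample lay below every control, but the spread among controls was large and neither passed, with log2 fold changes of -1.29 (SE 0.46, limma adjusted p = 0.154) and -1.15 (SE 0.47, limma adjusted p = 0.211). For MT-CO1 the groups overlapped (-0.85, SE 0.53, limma adjusted p = 0.432). Without control 3, the highest library for all 3, the log2 fold changes were -0.39 for MT-CO1 (limma adjusted p = 0.487), -0.86 for MT-CO2 (adjusted p = 0.109) and -0.86 for MT-CO3 (adjusted p = 0.163).

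By limma, most mRNAs of complex I and III lay the other way. With all samples the limma log2 fold change was above 0 for each except MT-ND3 (-0.05), and it was higher for each once control 3 was set aside. By DESeq2 with all samples, 3 of the 6 MT-ND mRNAs lay below 0 and MT-CYB was at 0.01. MT-CYB (chrM:14747-15887), cytochrome b of complex III, had 2366, 2057 and 11160 in the controls and 3621, 8103 and 4005 in the depleted samples, so all depleted samples lay above control 1 and 2 and below control 3. Its log2 fold change was 0.37 with all samples (SE 0.65, limma adjusted p = 0.815) and 1.15 without control 3 (adjusted p = 0.0868). The MT-ND genes encode membrane subunits of the proton-pumping arm of complex I. MT-ND2 had 400, 326 and 1621 against 372, 2354 and 1789. MT-ND1 had 529, 482 and 2200 against 535, 2345 and 1764. In both, depleted 1 was at the level of control 1 and 2, and the other depleted samples were near control 3. MT-ND5 had 2232, 1452 and 5501 against 1774, 6001 and 3622. MT-ND4 had 3915, 1824 and 9329 against 2774, 7378 and 4660. MT-ND4L, translated from the same mRNA as MT-ND4, had 569, 445 and 1768 against 603, 1296 and 836, all depleted samples lying above control 1 and 2. MT-ND3 had 889, 1998 and 4640 against 1343, 2450 and 2238, with the groups overlapping. Median log2 fold changes over the 6 MT-ND mRNAs were 0.28 with all samples and 0.85 without control 3, and none passed.

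The complex V mRNAs overlapped between the groups. MT-ATP6, part of the proton channel, had 1624, 1551 and 7163 in the controls and 1877, 2812 and 1442 in the depleted samples. MT-ATP8 had 137, 141 and 566 against 75.1, 258 and 206. Both open reading frames lie on a single mRNA and overlap by 46 bases (chrM:8527-8572, hg38, plus strand), which is 22.2% of MT-ATP8, so a read there cannot be given to either gene alone. The stretch is shown with 20 flanking bases on each side, and capitals mark the shared bases, which begin with the ATG start codon of MT-ATP6.
MT-ATP8 and MT-ATP6: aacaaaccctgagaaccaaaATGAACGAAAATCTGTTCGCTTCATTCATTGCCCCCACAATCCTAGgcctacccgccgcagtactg

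Setting each mRNA against the sum of the 12 in its own library removed the level of the library. The 3 MT-CO mRNAs together made up 88.6%, 86.9% and 80.6% of the sum in the controls and 77.8%, 64.6% and 70.9% in the depleted samples, all depleted samples lying below all controls (means 85.3% ± 4.22 and 71.1% ± 6.59, SD, n = 3 per group). The 6 MT-ND mRNAs made up 7.71%, 8.33% and 11.1% against 12.7%, 23.4% and 21.1%, all depleted samples above all controls (9.04% ± 1.798 and 19.1% ± 5.65, SD, n = 3). The exact two-sided permutation test gave p = 0.1 for each, the smallest it can give, and 0.1 after adjustment over the 2. In both sums control 3 was the control nearest to the depleted samples, and depleted 1 the depleted sample nearest to the controls. Singly, MT-CO2 lay below in all depleted samples (15.5%, 19.95% and 17.5% against 12.2%, 12.4% and 12.6%), and MT-CYB (2.14%, 2.62% and 4.94% against 6.21%, 8.70% and 5.66%), MT-ND4, MT-ND4L and MT-ND5 lay above, while the shares of the other 7 mRNAs overlapped. These are shares, so a rise in one is tied to a fall in another, and the sums were chosen after the values had been seen.

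**Figure D4:**
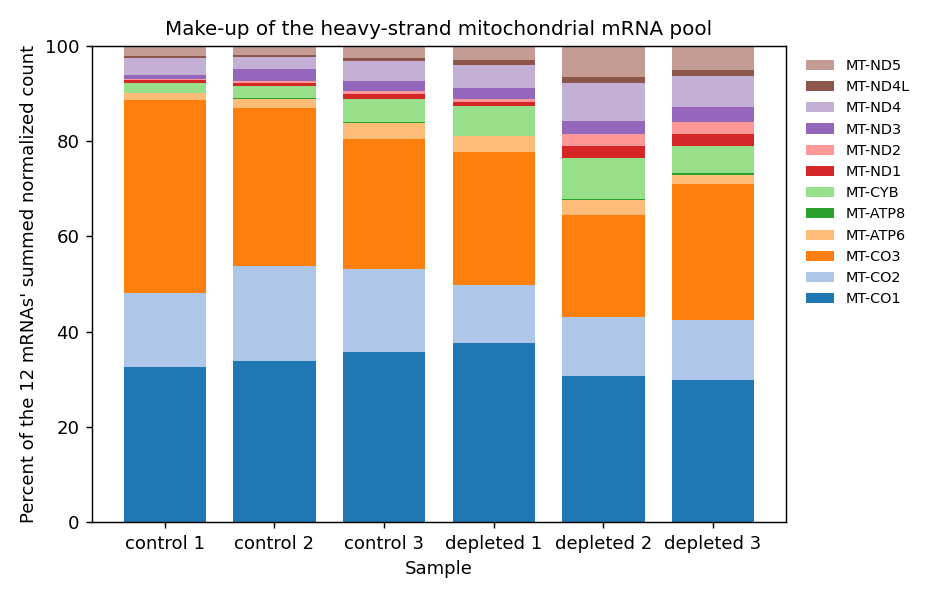
Percent of the summed normalized count of the 12 heavy-strand mitochondrial mRNAs taken by each mRNA (stacked bars to 100, 1 bar per sample). The 3 MT-CO mRNAs at the bottom reach 80.6% to 88.6% in the controls and 64.6% to 77.8% in the depleted samples.

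Reads of related origin were checked beside these values. MT-ND6, encoded on the other strand, had 1069, 244 and 585 normalized counts in the controls and 76.9, 15763 and 10169 in the depleted samples, so depleted 2 and 3, where the MT-ND shares were the highest, were also highest in light-strand reads. The libraries kept strand, but the strand setting used in counting is not given in the sources used here, and the part of light-strand reads in the MT-ND values was not tested. The nuclear copies of mitochondrial genes held fewer reads than the matching mRNAs in every sample, but not a negligible number for each. MTND2P28 had 56.4, 49.8 and 234 in the controls and 76.0, 188 and 96.1 in the depleted samples. MT-ND2 had 400, 326 and 1621 against 372, 2354 and 1789. MTATP6P1 had 154, 129.5 and 542 against 114, 316 and 186, and MTCO1P12 had 64.4 to 154 against 22.4 to 55.7. The part of reads shared with such copies was not tested.

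Summed over members, the 84 nuclear genes took 1.10%, 1.18% and 0.455% of all counted reads in the controls and 0.583%, 0.496% and 0.657% in the depleted samples. The 12 mitochondrial mRNAs took 0.608%, 0.467% and 1.50% against 0.374%, 0.582% and 0.424%. The groups overlapped in both sums, with control 3 the lowest of the 6 samples in the first and the highest in the second. The ratio of mitochondrial to nuclear reads was 0.553, 0.396 and 3.29 in the controls and 0.642, 1.18 and 0.644 in the depleted samples, so all depleted samples lay above control 1 and 2 and below control 3.

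**Figure D5:**
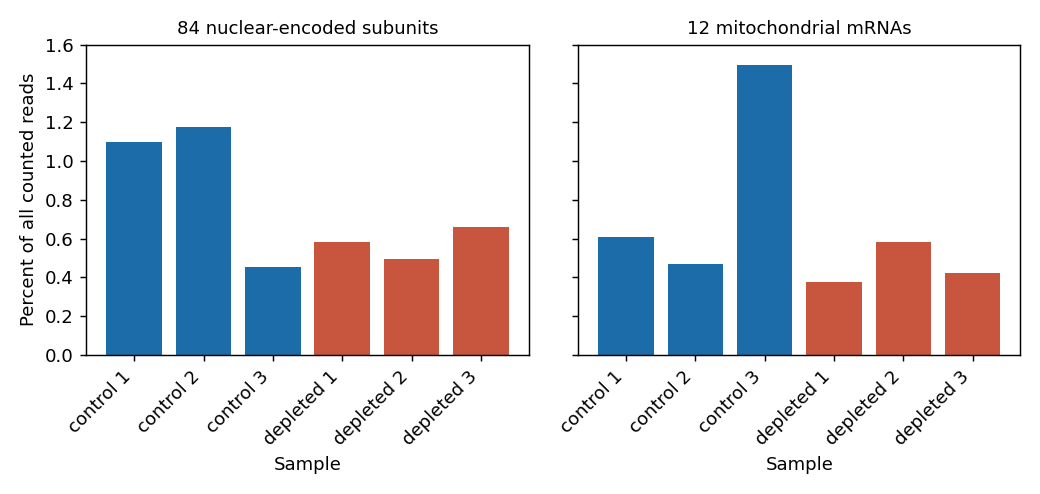
Percent of all counted reads (vertical axis, from 0) that fell on the 84 nuclear-encoded subunits (left) and on the 12 heavy-strand mitochondrial mRNAs (right) in each sample, controls blue and depleted samples red. Control 3 has the lowest nuclear share, 0.455%, and the highest mitochondrial share, 1.50%.

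Genes that build the chain or express mitochondrial DNA were counted from fixed lists, and their counts are read against the shares of all genes tested, which by limma were 1.97% called lower and 20.0% with an unadjusted p under 0.05 with all samples, and 6.49% called lower without control 3. Of 51 assembly factors tested, limma called 0 with all samples (8 at an unadjusted p under 0.05, median log2 fold change -0.28) and 5 lower without control 3 (median -0.61), namely NDUFAF2, NUBPL, SDHAF3, LYRM7 and COX15. Of 35 genes that copy, transcribe or process mitochondrial DNA and RNA, 2 were called lower with all samples (median -0.44) and 7 lower without control 3 (median -0.55), the 7 becoming 4 with the length and GC correction and 4 with edgeR. The 2 were LRPPRC, which stabilises mitochondrial mRNAs, and FASTKD1, an RNA-binding protein of the same compartment. LRPPRC had 7654, 7318 and 5101 in the controls and 2891, 2847 and 2632 in the depleted samples (log2 fold change -1.24, SE 0.29, limma adjusted p = 0.0415), and FASTKD1 had 1090, 1164 and 767 against 288, 509 and 414 (-1.33, SE 0.32, limma adjusted p = 0.0484). The groups did not overlap in either gene, and both were called without control 3, but with all samples edgeR called 0 of the 35 and DESeq2 4. Leaving out any sample other than control 3 ended both calls, with limma adjusted p of 0.0899 to 0.191 for LRPPRC and 0.0929 to 0.159 for FASTKD1. PNPT1, FASTKD2 and TRMT10C were among the 7.

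Of 25 regulators of mitochondrial biogenesis tested, 1 was called lower with all samples and 3 lower without control 3, with medians of 0.02 and -0.03, small counts to set against the 1.97% and 6.49% of all genes. PPARGC1B, a coactivator of nuclear genes for mitochondrial proteins, had 900, 739 and 414 in the controls and 21.97, 84.6 and 35.8 in the depleted samples (log2 fold change -3.97, SE 0.55, limma adjusted p = 0.00488), with no overlap and control 3 the lowest control. It was called with each sample left out in turn, at limma adjusted p of 0.00565 to 0.0280. The other 2 were ESRRA, the estrogen-related receptor on which this coactivator acts, with 1144, 1375 and 770 against 532, 424 and 660, and MYC, with 1557, 4964 and 1473 against 833, 492 and 425. Limma gave -1.01 with all samples (adjusted p = 0.117) and -1.24 without control 3 (adjusted p = 0.0276) for ESRRA, and -2.01 (adjusted p = 0.0530) and -2.31 (adjusted p = 0.0303) for MYC. PPARGC1A, the paralog of PPARGC1B, lay the other way, with 96.5, 19.3 and 379 against 558, 347.5 and 116, and the groups overlapped. Limma gave it 1.64 with all samples (adjusted p = 0.427) and 2.67 without control 3 (adjusted p = 0.0758). With all samples, 12 of the 25 regulators had a log2 fold change below 0.

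Of 17 carriers and exchangers tested, limma called 0 with all samples (4 at an unadjusted p under 0.05, against 20.0% of all genes) and 6 lower without control 3 (6.49% of all genes), with medians of -0.37 and -0.88. With all samples, edgeR called 0 (5.72% of all genes) and DESeq2 called 4 lower (12.4% of all genes in either direction). Cytochrome c, the mobile carrier between complexes III and IV, is encoded by CYCS, which had 5866, 7454 and 1303 in the controls and 1108, 1905 and 1686 in the depleted samples. CYC1, cytochrome c1 of complex III, which the symbol rule does not take in, had 3765, 4637 and 978 against 1555, 893 and 1485. The others were SLC25A5, an ADP/ATP translocase, VDAC1, the outer-membrane channel, and COQ2 and COQ3, which make ubiquinone. SLC25A4, another ADP/ATP translocase, lay the other way and was not called, with 815, 778 and 237 against 648, 1147 and 1896. Its log2 fold change was 1.07 with all samples (limma adjusted p = 0.341) and 0.49 without control 3. With all samples, 14 of the 17 had a log2 fold change below 0. CYCS without control 3 had a log2 fold change of -2.11 (SE 0.30, limma adjusted p = 0.00794), larger in size than that of any subunit, and of -1.33 with all samples (adjusted p = 0.278).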

How the data were processed

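RNA was isolated from MCF10A cells grown with (3 samples) or without (3 samples) growth factors, and conditions came from the sample labels. The design text of the deposit speaks of 2 replicates, while the labels list 3 per condition. The deposited values are a signal per gene that the authors made by depleting ribosomal RNA, sequencing strand-specific libraries as single-end reads of 100 bases, trimming with cutadapt 1.6, mapping to hg38 with TopHat2, counting with HTSeq on Gencode v22 and dividing the counts by DESeq2 1.8.1 size factors. Of the values, 100% were whole multiples of 1 read (tolerance 0.001), so reads could be recovered. Gencode v44 named 18913 of the 19198 identifiers and lacked 285, and no value was length-normalized unless so stated.

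The members and gene lists were chosen with earlier results of these data known. Log2(normalized count + 1) was tested with limma 3.58.1 (lmFit, eBayes with trend, two-sided) in R 4.3.3 for the 16988 genes whose mean was 10 or more, with Benjamini-Hochberg adjustment over all of them and a call at adjusted p under 0.05 and at least 2-fold. Fold changes of low genes are understated on this scale. Counting precision is limited by 7472418 to 28672630 reads per sample, and 3 reads were taken as the floor, a limit for counting error alone, there being no molecular identifiers. Named were all mitochondrial mRNAs, every nuclear member called, the highest and lowest fold change of each complex, core subunits, isoform pairs, members below the filter and called genes of the assembly, mitochondrial DNA expression, biogenesis and carrier lists. Some members that this rule names are not reported here. Other members were named after their values were seen. Same-numbered control and depleted samples were not paired, their deviations correlating at -0.073, -0.283 and -0.323. Alternatives were pseudocounts of 0.5 and 10, no filter and a mean of at least 50, other scalings, no trend, a replicate block, a correction for GC content and transcript length, each sample left out, and edgeR 4.0.16 and DESeq2 1.42.0 on the recovered reads. The limma procedure was tested on simulated data.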

Additional observations from a re-analysis of the deposited data

How the results depend on the processing

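The 6 samples gave 1076 genes called, 1 of them a nuclear subunit. Depth limits the precision of members with few reads, such as NDUFA7. Leaving out each sample in turn gave 453 to 2474 for genes called, all features, 0 to 41 nuclear subunits and 0 mitochondrial mRNAs, with the highest counts (2474 and 41) without control 3, medians of -1.01 to -0.23 (nuclear) and -0.34 to 0.66 (mitochondrial), and a difference in the share of all reads on heavy-strand mitochondrial mRNAs of -0.593 to -0.0775 percentage points (-0.397 with all samples). Without control 3 and with the correction for length and GC content, chosen after seeing the data, 2450 genes and 30 nuclear subunits were called and the mitochondrial median was 1.02. With edgeR and without control 3, also chosen after seeing the data, 2360 genes and 34 nuclear subunits were called. The correction alone called 3 nuclear subunits (NDUFV1, SDHA and UQCRHL), limma without the trend called 0, and DESeq2 called 2112 genes, 2 nuclear subunits (SDHA and NDUFA5) and 2 mitochondrial mRNAs. The replicate number as a block, which the check of pairing did not bear out, called 0 nuclear subunits and 0 of the 35 genes of mitochondrial DNA expression, and the block with the correction called 705 genes. The cause was not tested. Direction and call were unchanged in 816 of the combinations of the 44 named tested members with the other settings, 60 became calls, 7 lost the call and 40 changed sign. Other than by leaving out a sample, the sign changed for COX7A1 (0.10 with all samples; -0.16 with the correction, with or without the block, -0.33 with edgeR, -0.36 with DESeq2), for MT-ND3 (0.00 with quantile normalization) and for MT-ND4 and MT-ND4L (-0.03 each with DESeq2). Without control 3 and with the correction, values that changed sign were -0.94 for COX7A1, 0.67 for MT-ATP6, 0.49 for MT-ATP8, 0.96 for MT-ND3 and -0.08 for NDUFB7, and with edgeR they were -0.83 for COX7A1, -0.09 for ATP5F1E, -0.01 for UQCR11, 0.43 for MT-ATP6, 0.43 for MT-ATP8 and 0.54 for MT-ND3. Over the samples left out in turn, log2 fold changes that crossed 0 ranged from -0.18 to 0.75 for ATP5F1E, -0.57 to 0.14 for ATP5MC2, -0.93 to 0.63 for COX7A1, -0.79 to 0.31 for MT-ATP6, -0.83 to 0.19 for MT-ATP8, -0.07 to 1.15 for MT-CYB, -0.65 to 0.55 for MT-ND3, -0.40 to 0.77 for MT-ND4, -0.21 to 0.79 for MT-ND4L, -0.05 to 0.91 for MT-ND5, -0.06 to 0.81 for NDUFB7 and -0.09 to 0.54 for UQCR11.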

Other observations

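The tricarboxylic acid cycle, which supplies the chain with NADH and succinate, leaned the same way as the nuclear subunits. Of 18 genes of the cycle and of pyruvate dehydrogenase tested, limma called 2 lower with all samples (median log2 fold change -0.88, against -0.03 over all genes tested, of which 1.97% were called lower) and 12 lower without control 3 (median -1.34, 6.49% of all genes). The 2 were OGDH, of the 2-oxoglutarate dehydrogenase complex, with 4106, 5121 and 3465 normalized counts in the controls and 1940, 1319 and 1572 in the depleted samples (log2 fold change -1.39, SE 0.29, limma adjusted p = 0.0266), and SUCLG2, a subunit of succinyl-CoA synthetase, with 2286, 2135 and 1159 against 583, 619 and 595 (-1.57, SE 0.32, limma adjusted p = 0.0248). In neither gene did the groups overlap. Leaving out a sample other than control 3 ended the call of SUCLG2 each time (limma adjusted p = 0.0635 to 0.105) and that of OGDH each time (0.0812 to 0.141) except without depleted 1 (0.0394). Control 3 was at a median of 47.0% of the mean of control 1 and 2 over this list, and it was the lowest of the 6 samples for 3 of the 18.

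The proteins of the mitochondrial ribosome, which translates the mitochondrial mRNAs, had a median log2 fold change of -0.24 with all samples, 0 of 78 called by limma (6 at an unadjusted p under 0.05, against 20.0% of all genes, 0 called by edgeR or DESeq2), and of -0.70 without control 3, when 15 were called lower (6.49% of all genes). With the length and GC correction and without control 3 the 15 became 7 and the median -0.43. Control 3 was the lowest of the 6 samples for 51 of the 78, against 26.4% of all genes tested.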
